A study of Homo sapiens with 6 samples.

Results

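The cornified envelope is the crosslinked protein shell that keratinocytes build beneath their plasma membrane as they die in the outer layers of stratified epithelia. Precursor proteins such as involucrin, loricrin and the small proline-rich proteins are joined by transglutaminases, which form isopeptide bonds between glutamine and lysine side chains. Most of the precursor genes lie side by side on chromosome 1 in the epidermal differentiation complex. Simple lung epithelium makes little of these proteins, and small proline-rich proteins are known markers of squamous differentiation in airway cells.

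The 9 genes described here, of 60664 in the count table, were HRNR, FLG, SPRR1A, SPRR1B, SPRR2A, SPRR3, IVL, TGM1 and CNFN. They were chosen by symbol, with the si-GLMP against NC differences of these same libraries in view. Their own fold changes are therefore a description, carry no test, and lend no support to a change of the group. All 9 were among the 15900 genes that passed the filter on low counts. SPRR2A reached the level the filter asked for in the 3 si-GLMP libraries and in 0 NC libraries, so its presence among the tested genes already required a difference.

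The cells were PC9OR, a lung cancer line that the series title ties to resistance against EGFR tyrosine kinase inhibitors. There were 3 libraries labelled si-GLMP, with the genotype GLMP knockdown, and 3 labelled NC, with the genotype Control. GLMP encodes a glycosylated lysosomal membrane protein. Nothing else was stated to differ, both groups share the 1 line, and neither the silencing sequence, the time of harvest nor the origin of the replicates is given in the labels. GLMP itself had 82, 61 and 65 counts in the si-GLMP libraries, against 309, 344 and 347 in the NC libraries, for a log2 fold change of -2.25 ± 0.14 (SE; adjusted p = 1.16e-18 by the quasi-likelihood test of edgeR with Benjamini-Hochberg adjustment). TMEM79, on the opposite strand, covers 17.5% of the exonic length of GLMP.

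Library totals lay between 19896875 and 22372878 counts, so that 3 counts, taken as the floor of detection, equalled 0.133 to 0.151 CPM, the depth-scaled count after TMM factors. NC replicate 2 stood apart from its fellows, with a chi-square per degree of freedom of 10.4 and 11.9 against NC replicates 1 and 3, where those differed from each other by 2.23. The si-GLMP pairs lay between 4.78 and 9.01, and without NC replicate 2 the same calls stood for all 9 genes. Keratinocyte markers were present only in part. TP63, KRT14, KRT5 and KRT10 were expressed, KRT1, DSG1 and DSG3 had at most 7 counts in a library, and LORICRIN, which encodes the main precursor of skin, had 0 in each of the 6 libraries. Of the 8 markers 4 had 10 or more counts, and their summed CPM ran from 291 to 349 in si-GLMP libraries and from 395 to 460 in NC libraries. The alveolar markers NKX2-1, SFTPB and SFTPC had at most 6 counts in a library and NAPSA at most 13, whereas the simple epithelial keratin KRT8 stood at 3251 ± 201 CPM in si-GLMP and 3354 ± 151 CPM in NC (SD, n = 3 each). The 6 simple epithelial markers summed to 8304 to 9294 CPM in si-GLMP libraries and to 9109 to 9384 CPM in NC libraries. At an adjusted p under 0.05 by edgeR, EPCAM and CDH1 were higher (log2 fold change 0.30 each) and KRT7 was lower (-0.27). KRT8, KRT18 and KRT19 did not pass. Among 5 fibroblast markers, DCN and LUM had at most 1 count in a library, and the summed CPM ran from 10.5 to 12.4 in si-GLMP libraries and from 5.99 to 7.48 in NC libraries, mostly COL1A1. Summed leukocyte markers ran from 0.44 to 1.08 CPM in si-GLMP and from 0.73 to 1.33 CPM in NC, and endothelial markers from 6.78 to 7.64 CPM in si-GLMP and from 4.82 to 7.68 CPM in NC. The part of these markers in the values below was not tested. In bulk RNA, more cells that express a gene and more of its RNA per cell cannot be told apart.

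Over the 15900 tested genes, 12.0% passed as higher in si-GLMP and 11.3% as lower, the threshold being an adjusted p of 0.05 by edgeR, and the median log2 fold change was 0.004. Among the 9 envelope genes, 6 passed this threshold and were higher (HRNR, FLG, SPRR1A, SPRR1B, SPRR2A and SPRR3), 0 were lower, and IVL, TGM1 and CNFN did not pass. Every si-GLMP library lay above every NC library for 7 of the 9, against 18.5% of all tested genes. Since the contrast was known when the genes were chosen, these counts only describe them. Their log2 fold changes ran from 0.27 in TGM1 to 3.06 in SPRR2A, with a median of 1.63.

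**Figure D1:**
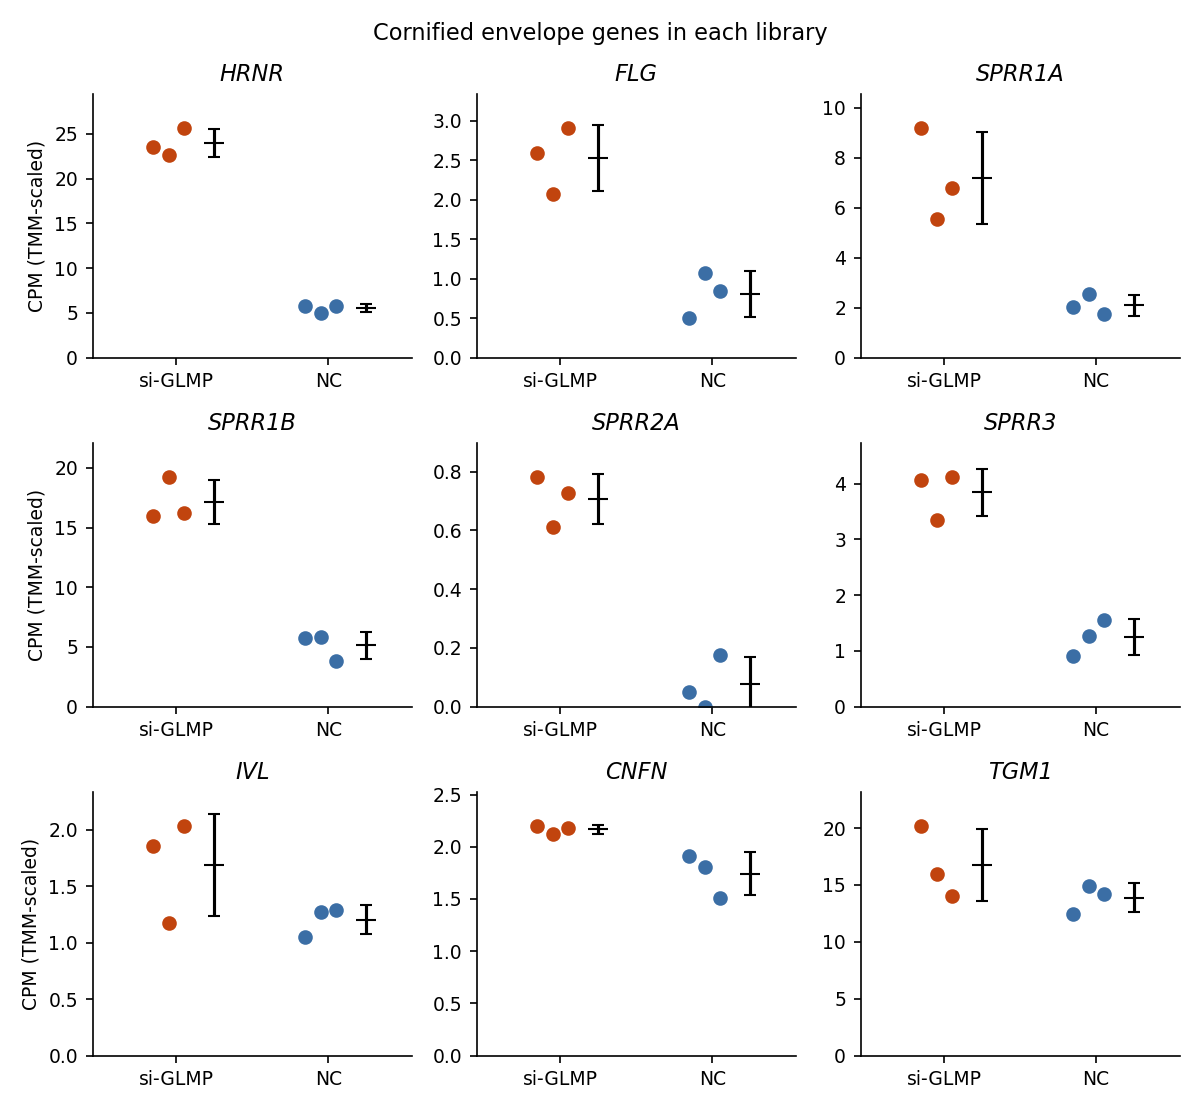
Level of each of the 9 genes in every library, in CPM scaled by TMM factors, with si-GLMP (orange) left of NC (blue); points are libraries and black bars the mean ± SD (n = 3 each), cut off at 0 for SPRR2A in NC. The groups stand apart for HRNR, FLG, the 4 small proline-rich genes and, by a narrow gap, CNFN, and overlap for IVL and TGM1.

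HRNR and FLG encode S100 fused-type proteins, long repeat proteins with a calcium-binding start. Hornerin, the product of HRNR, is built into the envelope, and profilaggrin, the product of FLG, is cut into filaggrin, which bundles keratin filaments and is later broken down into moisture-binding amino acids. HRNR (ENSG00000197915; GRCh38 chromosome 1, 152212082 to 152224193, minus strand, 3 exons) had 482, 481 and 530 counts in si-GLMP, against 116, 102 and 129 in NC. The 3 si-GLMP libraries lay close together and far above all NC libraries. The mean level was 24.0 ± 1.54 CPM in si-GLMP and 5.51 ± 0.455 CPM in NC (SD, n = 3 each), which gave a log2 fold change of 2.12 ± 0.12 (SE). Only 10 of the tested genes, HRNR included, had a log2 fold change as large. FLG (ENSG00000143631; chromosome 1, 152302175 to 152325203, minus strand) was much scarcer, with 53, 44 and 60 counts in si-GLMP, against 10, 22 and 19 in NC. The groups did not overlap, but the NC libraries varied by a CV of 35.8%. The mean was 2.52 ± 0.420 CPM in si-GLMP and 0.807 ± 0.289 CPM in NC, a log2 fold change of 1.63 ± 0.29 (SE). From counting error alone, the ratio of the summed counts was 3.11 (exact 95% interval 2.25 to 4.35). This interval leaves out the spread between libraries and the choice of the gene with the contrast known, so it tests nothing.

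FLG has a neighbour on the opposite strand, the noncoding gene FLG-AS1, which covers 704 bases or 5.5% of its exonic length. FLG-AS1 had 23, 40 and 25 counts in si-GLMP, against 11, 6 and 8 in NC, for a log2 fold change of 1.81 ± 0.39 (SE; adjusted p = 0.00029 by edgeR). It reached the filter level in 3 si-GLMP libraries and in 1 NC library, so it entered the test through si-GLMP. Because the strand setting of the counting is not given in the sources used here, reads from the shared bases could stand in either gene. HRNR shares no exonic base with another annotated gene.

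The promoters of this pair are shown because HRNR and FLG are neighbours of one family that were both higher. Each line gives the 250 bases before the RefSeq transcription start (GRCh38.p14, minus strand, 5′ to 3′), at chr1:152224194-152224443 for HRNR and chr1:152325240-152325489 for FLG. Capitals mark the TATA box hexamer TATAAA and the AP-1 heptamer TGANTCA.
HRNR: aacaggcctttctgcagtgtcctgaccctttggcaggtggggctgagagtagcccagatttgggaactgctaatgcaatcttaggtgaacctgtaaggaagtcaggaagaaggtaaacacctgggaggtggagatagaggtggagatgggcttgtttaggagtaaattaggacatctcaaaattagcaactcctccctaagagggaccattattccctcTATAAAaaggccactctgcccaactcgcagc
FLG: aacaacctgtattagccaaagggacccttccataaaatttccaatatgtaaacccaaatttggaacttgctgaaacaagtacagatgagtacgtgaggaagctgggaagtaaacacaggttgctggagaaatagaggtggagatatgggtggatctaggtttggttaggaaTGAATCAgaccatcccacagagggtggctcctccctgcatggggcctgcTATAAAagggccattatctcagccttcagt

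Aligned end to end, the 2 windows were identical at 155 of 272 aligned positions (57.0%), with a longest shared run of 14 bases. Apart from SPRR1A with SPRR1B, other pairs of promoter windows lay between 42.2% (SPRR1B and CNFN) and 52.7% (FLG and SPRR1A). TATAAA began 31 bases before the start in HRNR and 30 in FLG. The AP-1 heptamer, the recognition letters of FOS and JUN dimers, occurred 1 time in FLG, 79 to 73 bases before the start, and 0 times in HRNR.

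Small proline-rich proteins are short, repetitive crossbridges of the envelope, rich in proline, glutamine and lysine. SPRR1B (ENSG00000169469; chromosome 1, 153031202 to 153032900, plus strand) had 326, 408 and 335 counts in si-GLMP, against 114, 120 and 87 in NC. SPRR1A (ENSG00000169474; chromosome 1, 152985231 to 152985500, plus strand) had 188, 118 and 140 counts in si-GLMP, against 40, 52 and 39 in NC. For both genes the lowest si-GLMP library was more than 2 times the highest NC library in CPM. SPRR1B averaged 17.1 ± 1.83 CPM in si-GLMP and 5.15 ± 1.12 CPM in NC (SD, n = 3 each), which gave a log2 fold change of 1.74 ± 0.14 (SE). SPRR1A averaged 7.18 ± 1.84 CPM in si-GLMP and 2.09 ± 0.414 CPM in NC, a log2 fold change of 1.78 ± 0.19 (SE).

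SPRR1A and SPRR1B are alike in sequence, which leaves the split of reads between them uncertain. Their longest annotated transcripts share an exact run of 74 bases, and 11.3% of the 50-base windows of SPRR1A occur in SPRR1B. In si-GLMP the library with the most SPRR1A had the least SPRR1B and the reverse. SPRR1A made up 36.6%, 22.4% and 29.5% of the pair in si-GLMP replicates 1 to 3, against 26.0%, 30.2% and 31.0% in NC replicates 1 to 3. Added together, the pair stood at 25.1, 24.8 and 23.0 CPM in si-GLMP, against 7.73, 8.42 and 5.59 CPM in NC. The CV of the sum was 4.68% in si-GLMP, where SPRR1A alone had 25.7% and SPRR1B alone 10.7%, and 20.3% in NC. Refitted as 1 row, the pair had a log2 fold change of 1.75 ± 0.12 (SE). The part of shared reads in the opposite order was not tested.

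SPRR3 (ENSG00000163209; chromosome 1, 153001747 to 153003856, plus strand), a form made by oral and oesophageal epithelium, had 83, 71 and 85 counts in si-GLMP, against 18, 26 and 35 in NC. All si-GLMP libraries were above all NC libraries, with means of 3.84 ± 0.428 CPM in si-GLMP and 1.24 ± 0.326 CPM in NC (SD, n = 3 each). Its log2 fold change was 1.61 ± 0.23 (SE). SPRR2A (ENSG00000241794; chromosome 1, 153056113 to 153057537, minus strand) was near the floor, with 16, 13 and 15 counts in si-GLMP, against 1, 0 and 4 in NC. The mean was 0.707 ± 0.0862 CPM in si-GLMP and 0.0759 ± 0.0915 CPM in NC, with no overlap of the libraries. The fitted log2 fold change of 3.06 ± 0.64 (SE) rests on 5 NC counts in all and was 4.53 without NC replicate 3. The ratio of summed counts was 8.88, with an exact 95% interval from counting error of 3.53 to 28.7. This interval leaves out the spread between libraries, the choice of the gene with the contrast known and its entry through si-GLMP, so it tests nothing. SPRR2A shares exact runs of 77 to 193 bases with the transcripts of SPRR2B, SPRR2D, SPRR2E, SPRR2F and SPRR2G, so its reads may belong in part to those genes.

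The windows before SPRR1A, SPRR1B and SPRR3 are shown because these neighbouring plus-strand genes had log2 fold changes within 0.2 of each other. They lie at chr1:152983831-152984080, chr1:153030953-153031202 and chr1:153001499-153001748 (GRCh38.p14, plus strand, 5′ to 3′), with the same motifs in capitals.
SPRR1A: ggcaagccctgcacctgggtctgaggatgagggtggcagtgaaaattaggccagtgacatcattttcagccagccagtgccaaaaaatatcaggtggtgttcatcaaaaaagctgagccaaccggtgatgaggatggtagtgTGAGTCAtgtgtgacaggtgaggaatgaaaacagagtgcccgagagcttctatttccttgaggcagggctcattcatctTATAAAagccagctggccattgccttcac
SPRR1B: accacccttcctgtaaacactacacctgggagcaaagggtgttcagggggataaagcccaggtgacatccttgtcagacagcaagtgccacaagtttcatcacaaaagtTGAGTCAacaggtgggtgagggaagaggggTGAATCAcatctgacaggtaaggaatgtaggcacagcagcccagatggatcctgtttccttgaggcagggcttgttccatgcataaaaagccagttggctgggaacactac
SPRR3: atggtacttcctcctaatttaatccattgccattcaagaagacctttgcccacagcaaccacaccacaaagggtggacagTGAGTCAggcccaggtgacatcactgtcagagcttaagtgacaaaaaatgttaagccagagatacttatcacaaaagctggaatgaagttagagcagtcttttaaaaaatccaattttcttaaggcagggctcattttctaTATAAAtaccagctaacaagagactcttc

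SPRR1A and SPRR1B were identical at 172 of 268 aligned positions (64.2%) and shared a run of 18 bases, and SPRR3 shared a run of 14 bases with either. The identity of SPRR3 was 49.0% with SPRR1A and 50.5% with SPRR1B, within the range of unlike pairs given above. TGANTCA occurred 1 time before SPRR1A (108 to 102 bases before the start), 2 times before SPRR1B (141 to 135 and 111 to 105) and 1 time before SPRR3 (170 to 164). TATAAA began 29 bases before the start of SPRR1A and SPRR3, and these exact letters are not in the SPRR1B window. The SPRR1A promoter start of RefSeq lies upstream of the gene start in GENCODE 29, where SPRR1A is a single block of 270 bases.

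IVL, CNFN and TGM1 did not pass the threshold. IVL encodes involucrin, the glutamine-rich protein laid down first at the membrane. IVL (ENSG00000163207; chromosome 1, 152908545 to 152911886, plus strand) had 38, 25 and 42 counts in si-GLMP, against 21, 26 and 29 in NC. The groups overlapped, since si-GLMP replicate 2 fell among the NC libraries. The mean was 1.69 ± 0.452 CPM in si-GLMP and 1.20 ± 0.130 CPM in NC (SD, n = 3 each), which gave a log2 fold change of 0.48 ± 0.29 (SE) that did not pass the threshold. CNFN, for cornifelin, a small envelope protein (ENSG00000105427; chromosome 19, 42387019 to 42390287), had 45 counts in each si-GLMP library, against 38, 37 and 34 in NC. The mean was 2.17 ± 0.0403 CPM in si-GLMP and 1.74 ± 0.208 CPM in NC. Its groups did not overlap, yet the log2 fold change of 0.32 ± 0.24 (SE) was little more than its error and did not pass.

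TGM1 encodes transglutaminase 1, the membrane-bound enzyme that crosslinks the precursors in keratinocytes. TGM1 (ENSG00000092295; chromosome 14, 24249114 to 24264432, minus strand) had 413, 339 and 289 counts in si-GLMP, against 248, 305 and 320 in NC. The libraries interleaved, with si-GLMP replicate 1 highest and NC replicate 1 lowest. The mean was 16.7 ± 3.16 CPM in si-GLMP and 13.9 ± 1.27 CPM in NC (SD, n = 3 each). The log2 fold change was 0.27 ± 0.12 (SE) and did not pass. Without si-GLMP replicate 3 it was 0.39 and passed, and without si-GLMP replicate 1 it was 0.11 and did not.

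**Figure D2:**
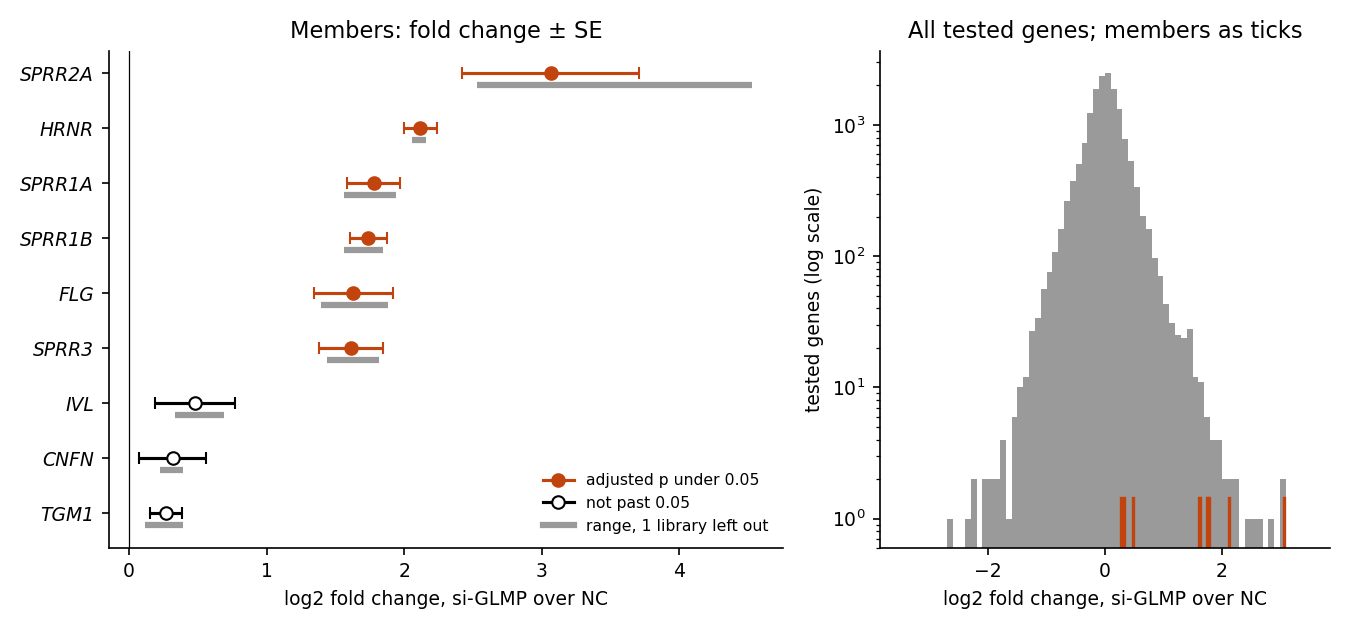
Left, log2 fold change of si-GLMP over NC for each of the 9 genes ± SE (filled where the adjusted p is under 0.05), with a grey bar for the range when 1 library is left out. Right, the log2 fold changes of all 15900 tested genes (log scale of gene numbers), with the 9 genes as ticks; 6 lie at 1.61 or above, and IVL, CNFN and TGM1 at 0.48 or below.

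The upstream window of IVL, a neighbour of the SPRR genes that did not pass, is shown for comparison and holds both motifs (chr1:152908296-152908545, GRCh38.p14, plus strand, 5′ to 3′).
IVL: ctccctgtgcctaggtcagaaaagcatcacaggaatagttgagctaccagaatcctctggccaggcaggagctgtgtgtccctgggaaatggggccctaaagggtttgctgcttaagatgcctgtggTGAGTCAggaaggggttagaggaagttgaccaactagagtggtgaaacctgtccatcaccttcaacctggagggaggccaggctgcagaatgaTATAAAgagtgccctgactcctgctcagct

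Its TGANTCA lay 123 to 117 bases before the start, and TATAAA began 30 bases before it. A promoter window was found for 8 of the 9 genes, all but TGM1. TGANTCA, which reads as the same pattern on both strands, was in 6 of these 8 windows (FLG, SPRR1A, SPRR1B, SPRR2A, SPRR3 and IVL) and in 6.6% of 35116 RefSeq windows of the same 250 bases. TATAAA, searched on both strands, was in 6 of 8 and in 10.7% of all windows, and CACCC, the core letters of KLF sites, on either strand was in 6 of 8 and in 54.7%. AACCGGTT, the grainyhead consensus, was in 0 of 8 and in 0.1% as exact letters. The SPRR1A window holds AACCGGTG, which differs in the last letter, and near matches were not searched. The first letters of the nearer SPRR1B heptamer (111 to 105 bases before the start) overlap a CACCC of the other strand (114 to 110). The motifs were picked with these windows in view, family members share ancestry, and a match is a run of letters, not a bound site.

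**Figure D3:**
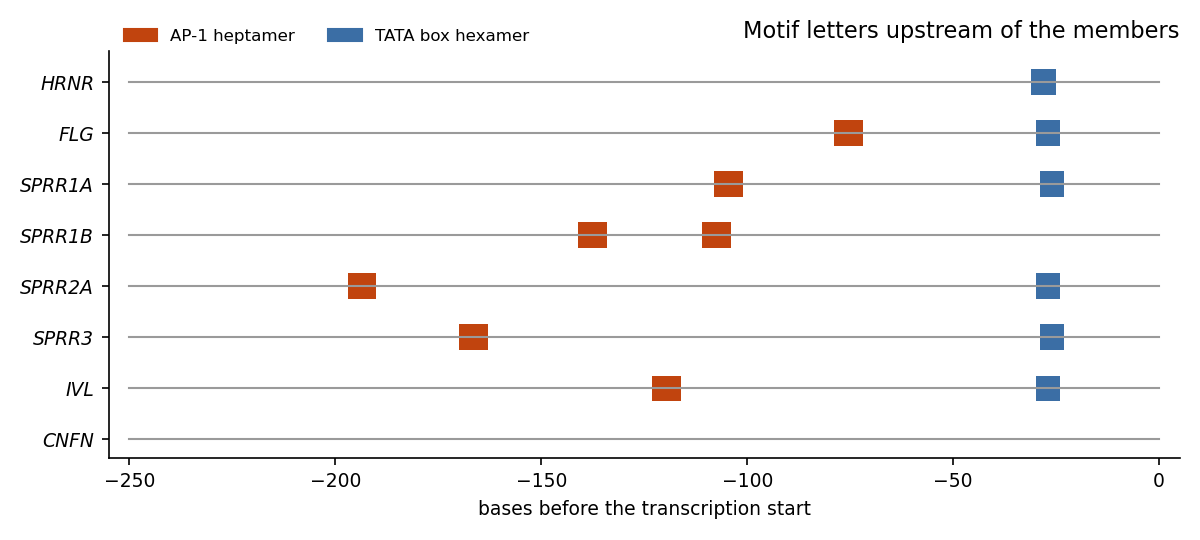
Positions of the AP-1 heptamer (orange) and the TATA box hexamer (blue) in the 250 bases before the RefSeq transcription start of 8 genes, with the start at the right. The TATA hexamers lie 24 to 31 bases before the start in 6 genes, whereas the AP-1 heptamers lie at different distances, from 73 to 197 bases.

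Levels of different genes were compared in CPM per kb of annotated exonic length. In si-GLMP, SPRR1B (27.6 ± 2.95, SD, n = 3) and SPRR1A (26.6 ± 6.83) stood highest and did not differ beyond their spread, and the short annotated length of SPRR1A may inflate its value. TGM1 (4.48 ± 0.845) and CNFN (3.59 ± 0.0668) followed, then SPRR3 (2.67 ± 0.297) and HRNR (2.49 ± 0.160), which overlapped. SPRR2A (0.998 ± 0.122) and IVL (0.785 ± 0.210) overlapped too, and FLG was last at 0.198 ± 0.0329 CPM per kb. How reads from the repeats of HRNR and FLG were counted is not given, so their ranks among genes are uncertain. In NC, SPRR1B (8.31 ± 1.81) and SPRR1A (7.76 ± 1.53) again led with overlapping levels, ahead of TGM1 (3.71 ± 0.340) and CNFN (2.89 ± 0.345). SPRR3 (0.863 ± 0.226), HRNR (0.573 ± 0.0473) and IVL (0.559 ± 0.0605 CPM per kb) came next, and SPRR2A (0.107 ± 0.129) and FLG (0.0633 ± 0.0227) last, again overlapping. HRNR and IVL thus had nearly the same level per length in NC, while in si-GLMP the HRNR level was above the IVL level in every library.

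On chromosome 1, 7 of the genes lie within 845.5 kb, and their neighbours were read for comparison. Between S100A10 and S100A1 (GRCh38 chromosome 1, 151982915 to 153632039) the annotation placed 83 other genes, of which 17 could be tested. The test called 6 of them higher and 0 lower and left 11 uncalled, at a median log2 fold change of 0.24, beside 12.0% higher and 11.3% lower over all tested genes. Of 12 tested S100 genes 5 were higher. The 6 were FLG-AS1 and the calcium-binding S100 genes S100A6, S100A8, S100A9, S100A14 and S100A16, named here after their values were seen. S100A9 had a log2 fold change of 2.22 ± 0.12 (SE; adjusted p = 1.95e-16 by edgeR) and S100A8 of 2.50 ± 0.43 (adjusted p = 8.48e-06 by edgeR). S100A8 reached the filter level in 0 NC libraries and FLG-AS1 in 1, against 3 si-GLMP libraries each, so both entered the test through si-GLMP. TCHH, which encodes trichohyalin of hair follicles and is a close relative of HRNR and FLG, had 0.10 ± 0.26 (adjusted p = 0.843 by edgeR). S100A10 and S100A11, at the end of the complex beyond HRNR and also named after their values were seen, had 0.03 and 0.02 and did not pass.

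**Figure D4:**
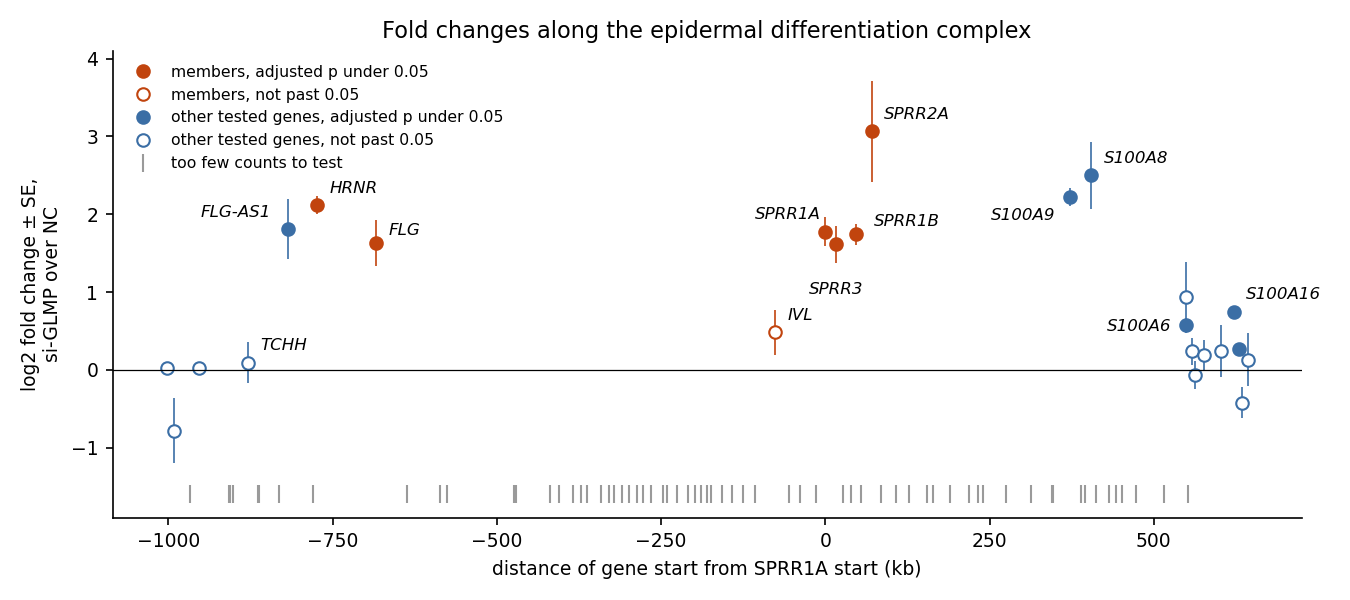
Log2 fold change ± SE of the genes between S100A10 and S100A1 against the distance of each gene start from the SPRR1A start, in kb. Of the 9-gene list, the 7 on chromosome 1 are in orange, and other tested genes are in blue. Points are filled where the adjusted p is under 0.05, and grey ticks mark genes with too few counts. High values lie around HRNR and FLG, around SPRR1A and at S100A8 and S100A9, while IVL (0.48) and TCHH (0.10) lie lower.

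Other precursor genes of the complex were scarce. Of the 34 other small proline-rich, late cornified envelope, loricrin-related and S100 fused-type genes listed, 33 had too few counts to test, all but TCHH, and no count of these 33 in any library was above 9. In all 6 libraries 12 of the 33 had 0, 17 had more counts in si-GLMP, and 4 had more in NC. Some of these genes differed by 1 count, and the share over all untested genes was not counted. Their counts summed to 132 over the si-GLMP libraries and to 37 over the NC libraries. The 7 other SPRR genes had 43 counts in si-GLMP and 5 in NC, led by SPRR4 with 5, 9 and 6 in si-GLMP, against 3, 0 and 1 in NC. Counts of SPRR2D, SPRR2E, SPRR2F and SPRR2G may belong in part to SPRR2A, with which they share exact runs. With no filter on low counts, PRR9 passed (3, 1 and 7 counts in si-GLMP, against 0 in each NC library, adjusted p = 0.0438 by edgeR), and SPRR4 did not (adjusted p = 0.0967 by edgeR).

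With those 34 included, 147 other genes of cornification were listed by role, and 85 could be tested. The test called 33 higher and 13 lower and left 39 uncalled, at a median log2 fold change of 0.12. Each list is given beside the 12.0% higher and 11.3% lower of all tested genes, and none was tested as a set.

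**Figure D5:**
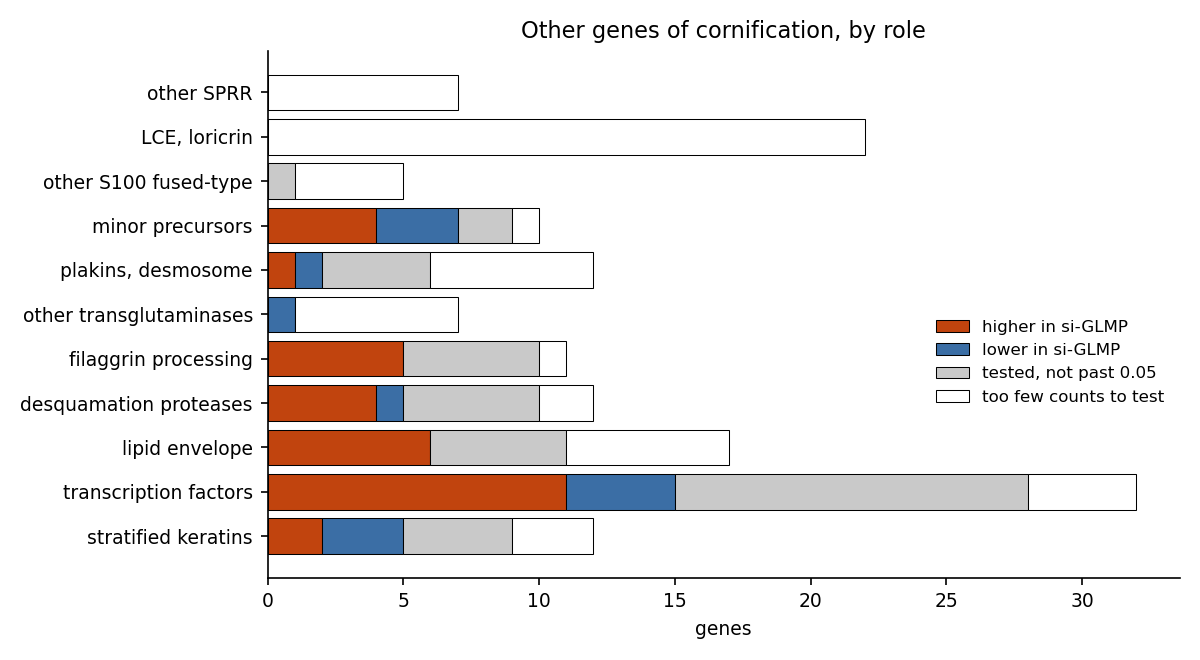
Number of genes in each list of other cornification genes that were higher (orange) or lower (blue) in si-GLMP at an adjusted p under 0.05, tested without passing (grey), or too scarce to test (white). The lipid envelope list has 6 higher and 0 lower of 11 tested, and the 22 late envelope and loricrin genes could not be tested.

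Minor envelope precursors moved both ways, with 4 of 9 tested higher and 3 lower (median log2 fold change 0.03). PI3, which encodes elafin, an elastase inhibitor with a transglutaminase anchor, rose to 13.2 ± 2.51 CPM in si-GLMP, against 5.30 ± 0.236 CPM in NC (SD, n = 3 each; log2 fold change 1.32 ± 0.14 SE, adjusted p = 5.60e-11 by edgeR). SLPI, a related protease inhibitor, rose by 0.80 and ANXA1, a calcium-dependent membrane binder, by 0.51. ECM1, a secreted matrix protein of skin, fell to 41.0 ± 4.05 CPM in si-GLMP, against 58.7 ± 4.93 CPM in NC (log2 fold change -0.52 ± 0.08, adjusted p = 1.79e-06 by edgeR). Of 6 tested plakins and desmosomal genes, to which the envelope is fixed, 1 was higher and 1 lower. DSC2, a desmosomal cadherin, rose by 0.69 and DSP, for desmoplakin, had -0.32. PPL, for periplakin, had 0.15 (adjusted p = 0.0932 by edgeR) and passed at 0.21 without si-GLMP replicate 2 (adjusted p = 0.0151 by edgeR). PKP3, for plakophilin of the desmosomal plaque, had 0.14 (adjusted p = 0.147 by edgeR).

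TGM2 was the 1 other transglutaminase with enough counts, since TGM3 and TGM5, the other enzymes of the epidermis, had 0 in every library. TGM2, a widely expressed intracellular and matrix crosslinker, stood at 154 ± 55.7 CPM in si-GLMP and 543 ± 26.2 CPM in NC (SD, n = 3 each; log2 fold change -1.82 ± 0.29 SE, adjusted p = 0.0146 by edgeR). The call was lost without any 1 of the NC libraries (adjusted p by edgeR of 0.0502 to 0.0572), without si-GLMP replicate 3 (0.0633) and with replicate numbers as a block (0.0584). Its log2 fold change in these settings stayed between -1.87 and -1.70. Per kb of exonic length, TGM2 still exceeded TGM1 in si-GLMP, at 19.2 ± 6.93 CPM per kb against 4.48 ± 0.845 (SD, n = 3).

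Enzymes that process filaggrin were higher in 5 of 10 tested, and 0 were lower (median log2 fold change 0.14). CASP14, the caspase of cornification that helps break filaggrin down, had 17, 36 and 23 counts in si-GLMP, against 5, 5 and 2 in NC, for a log2 fold change of 2.63 ± 0.48 (SE; adjusted p = 2.12e-05 by edgeR). It reached the filter level in 3 si-GLMP libraries and 0 NC libraries, so it too was testable only through the group where it was high; with no filter the adjusted p was 1.5e-06 by edgeR. ST14, for matriptase, rose by 0.47 (adjusted p = 1.08e-07 by edgeR) and KLK5, a kallikrein, by 0.38. FURIN, a proprotein convertase, had 0.20 (adjusted p = 0.0171 by edgeR), a call lost without NC replicate 1, NC replicate 3 or si-GLMP replicate 3. With any 1 of these libraries left out, 3 of the list were higher. DESeq2, which gave CASP14 no adjusted p, also gave 3, and a filter of 1 CPM in 3 libraries, which drops CASP14, gave 4. PADI1 and PADI3, which citrullinate filaggrin, did not pass, at 0.08 and -0.04, and were named after their values were seen.

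Among proteases that shed corneocytes and their inhibitors, 4 of 10 were higher and 1 lower (median log2 fold change 0.20). KLK6 rose to 528 ± 31.0 CPM in si-GLMP, against 371 ± 43.6 CPM in NC (SD, n = 3 each; log2 fold change 0.51 ± 0.07 SE, adjusted p = 1.07e-07 by edgeR), KLK10 rose by 0.70, and the matriptase inhibitor SPINT1 by 0.40. CTSV, a cathepsin of skin, had -0.44. Opposite-strand genes cover 20.3% of the exonic length of KLK6, 12.2% of that of KLK5 and 6.2% of that of KLK10. Likewise they cover 16.3% of KRT13, 14.2% of JUNB, 9.2% of ELF3, 7.6% of KRT8 and 4.9% of TGM2.

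Genes of the lipid envelope were higher in 6 of 11 tested and lower in 0 (median log2 fold change 0.26). ABCA12, the transporter that loads lipid into lamellar granules, rose to 145 ± 18.6 CPM in si-GLMP, against 79.5 ± 2.40 CPM in NC (SD, n = 3 each; log2 fold change 0.87 ± 0.07 SE, adjusted p = 1.85e-13 by edgeR). FA2H, which hydroxylates the fatty acids of ceramides, rose by 1.20, the fatty acid elongase ELOVL1 by 0.25, and the cholesterol sulfotransferase SULT2B1 by 0.77, a call that ended when si-GLMP replicate 1 was left out (adjusted p = 0.0647 by edgeR). CYP4F22, ELOVL4 and LIPN, named for it, had 0 in every library.

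Of 28 tested transcription factors of keratinocyte differentiation, 11 were higher and 4 lower (median log2 fold change 0.10). PRDM1, a repressor that acts late in differentiation, rose to 9.10 ± 1.21 CPM in si-GLMP, against 3.78 ± 0.313 CPM in NC (SD, n = 3 each; log2 fold change 1.27 ± 0.15 SE, adjusted p = 3.86e-09 by edgeR). The grainyhead factors GRHL1 and GRHL3 rose by 0.91 and 0.67, and ELF3, an epithelial ETS factor, by 0.79. The more abundant GRHL2, named after its values were seen, had 100.7 ± 7.22 CPM in si-GLMP and 120 ± 5.92 CPM in NC (SD, n = 3 each; log2 fold change -0.25 ± 0.07 SE, adjusted p = 0.00538 by edgeR), a call lost without si-GLMP replicate 3 (adjusted p = 0.0867 by edgeR). Named after their values were seen, ZNF750 rose by 0.80, the AP-1 genes JUN, JUNB and FOSL1 rose by 0.35, 0.37 and 0.25, and TP63, the basal-cell factor, had -0.32 (adjusted p = 0.000467 by edgeR). Larger falls, also named after their values were seen, were those of OVOL2 (-0.86, adjusted p = 0.00135 by edgeR) and GATA3 (-0.41, adjusted p = 0.00206 by edgeR). KLF4, JUND, FOS and FOSL2, named likewise, did not pass, at -0.08, 0.04, 0.03 and 0.06.

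Keratins of stratified epithelia went both ways, with 2 of 9 tested higher and 3 lower (median log2 fold change 0.09). KRT6B rose by 0.73 and its close copy KRT6A had -0.55 (adjusted p = 0.000978 by edgeR), and 28.5% of the 50-base windows of the KRT6A transcript occur in that of KRT6B, so the split of reads between them is uncertain. KRT13 had -0.63 and lost its call without si-GLMP replicate 2 or 3, and KRT16 had 0.34 and lost its call without NC replicate 3, si-GLMP replicate 1 or si-GLMP replicate 3. KRT5, a basal keratin of the keratinocyte marker list, had 78.7 ± 17.5 CPM in si-GLMP and 120 ± 3.73 CPM in NC (log2 fold change -0.60, adjusted p = 0.0202 by edgeR). Without NC replicate 2 it had -0.58 and did not pass (adjusted p = 0.122 by edgeR). KRT14, also of that list, had -0.45 and did not pass (adjusted p = 0.134 by edgeR). It passed as lower with no filter on low counts (-0.444), without NC replicate 1 (-0.512) and without si-GLMP replicate 1 (-0.649). KRT10, of the same list and the partner of KRT1 in the upper epidermis, had 0.09 and did not pass.

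Other genes were ranked by how far their 6-library profile, in log2(CPM + 0.1) relative to the NC mean, lay from the mean profile of the 9 genes. That mean stood at 1.445, 1.181 and 1.378 in si-GLMP replicates 1 to 3. It lies between the log2 fold changes of the 6 higher genes, at 1.61 or above, and those of IVL, CNFN and TGM1, at 0.48 or below. A small difference is thus likeness to an average, not to any 1 of the 9. The nearest were NECAB2, with a root mean square difference of 0.0892, an identifier without symbol (ENSG00000226329) at 0.102, CARD6 at 0.103, LINC02474 at 0.106 and AQP3 at 0.123. AQP3, the water and glycerol channel of basal keratinocytes, had 220, 222 and 232 CPM in si-GLMP, against 94.4, 95.9 and 98.7 CPM in NC. The likeness is mostly that of a shared difference between 2 groups and says nothing of shared control.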

How the data were processed

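RNA was sequenced from 6 libraries of PC9OR cells, 3 si-GLMP and 3 NC, grouped by title. Per the labels' protocols, mRNA libraries were made after Trizol extraction. The authors deposited raw read counts per gene, with no normalization; HISAT2 and GRCh38 stand in the submitters' processing notes, while the sources used here give no counter, annotation or strand setting. All 6 columns matched a sample and 0 were left over.

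Counts were tested with edgeR 4.0.16 (R 4.3.3) across all genes: filterByExpr with a minimum count of 10 kept 15900 of 60664 genes, followed by TMM scaling, robust quasi-likelihood fits with the group as the only term, and Benjamini-Hochberg adjustment over all tested genes at 0.05. SE is the log2 fold change over the square root of F. The code was tested on simulated data. Nothing says that replicates came from separate cultures, so p-values measure the spread between libraries, which may be technical. Intervals and the floor cover counting error only.

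The 9 genes, the lists and the motifs were chosen with earlier results of these data known. Genes named by rule were the 9, GLMP, the 4 tested genes of lowest adjusted p in a list (marker lists are given mostly as sums), every tested gene of the SPRR, S100 fused-type and transglutaminase lists, and the 5 nearest profiles. Further genes were named outside this rule, among them those marked as named after their values were seen. Of the identifiers, 60463 had a name in the reference list. Positions and exonic lengths are from GENCODE 29, which held 58396 of the identifiers; promoter sequences are from RefSeq (GRCh38.p14).

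Alternatives were RLE and upper-quartile scaling, 2 other filters, each library left out, a replicate block, limma-voom (limma 3.58.1), DESeq2 1.42.0 and the SPRR1 pair summed. Same-numbered libraries did not deviate together (correlations of 0.039, 0.026 and 0.001 over genes), so the numbers were not taken as pairs.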

Additional observations from a re-analysis of the deposited data

How the results depend on the processing

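Across 13 alternative settings, 1482 to 2052 genes were higher and 1283 to 1920 lower in si-GLMP, within 1.5 times of the 1910 and 1802 reported. With 1 library left out, the higher genes numbered 1482 to 1788 and the lower genes 1283 to 1660. With the replicate number as a block, 2052 genes were higher and 1920 lower, 6 of the 9 envelope genes passed, and GLMP had -2.25. Of the envelope genes, 5 passed under a filter of 1 CPM in 3 libraries, which drops SPRR2A, and 5 by DESeq2, which gave SPRR2A no adjusted p. By leaving out si-GLMP replicate 3, TGM1 made it 7. With 1 library left out, HRNR lay between 2.05 and 2.16, FLG between 1.40 and 1.88, SPRR1A between 1.56 and 1.94, SPRR1B between 1.57 and 1.85, SPRR3 between 1.44 and 1.81, IVL between 0.33 and 0.69, CNFN between 0.22 and 0.39 and TGM1 between 0.11 and 0.39 on the log2 scale. SPRR2A ran from 2.53 to 4.53, the highest without NC replicate 3. Of the other cornification genes, 27 to 34 were higher and 9 to 14 lower. Of the genes whose calls were followed across settings, TGM2 alone lost its call under the block (adjusted p = 0.0584 by edgeR). Values of FLG, IVL, CNFN and SPRR2A are limited by depth, since none of them had more than 60 counts in a library.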

Other observations

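Summed over the 9 genes, the level was 80.3, 72.8 and 74.6 CPM in si-GLMP replicates 1 to 3, against 30.4, 33.8 and 30.9 CPM in NC replicates 1 to 3. HRNR made up 31.6% of this sum in si-GLMP and 17.4% in NC, on a scale that favours long genes. HRNR spans 9623 exonic bases, while the SPRR1 pair spans 270 and 620.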
